A study of Mus musculus with 6 samples.

Results

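The 10 genes described here are members of the bone morphogenetic protein (BMP) pathway: the ligand gene Bmp4, the receptor genes Bmpr1a and Bmpr2, the receptor SMAD genes Smad1 and Smad5, the inhibitory SMAD genes Smad6 and Smad7, and the ID genes Id1, Id2 and Id3. They were taken by symbol from a table of raw counts for 27179 genes, of which 12345 could be tested, and all 10 members were among those tested. The cells were mouse embryonic stem cells (mESCs) expressing Tfe3-ERT2. This fusion of the transcription factor Tfe3 is built to stay out of the nucleus until tamoxifen is present. The location of the fusion was not measured here. All cultures were kept on gelatin in medium with 10% fetal bovine serum and LIF at 1000 U per mL. One group received 4-hydroxytamoxifen (4OHT) at 1 µg/mL for 48 h (3 libraries), and the other received ethanol, the vehicle (EtOH, 3 libraries). Every library carried the fusion, so the ligand 4OHT and any nuclear entry of the fusion changed together and cannot be told apart. The promoter driving the fusion and the number of clones are not given in the labels. Whether the 3 libraries of each group stem from separate cultures is not stated, and the p-values therefore measure only the spread between these libraries, which may be technical.

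BMP ligands are secreted dimers that bring together a type I receptor, such as BMPR1A, and a type II receptor, such as BMPR2. The active type I receptor phosphorylates SMAD1 and SMAD5, which join SMAD4 and enter the nucleus, where ID genes are among the best known direct targets. SMAD6 and SMAD7 block the pathway and are themselves switched on by it, a negative feedback. ID proteins have a helix-loop-helix domain without a DNA-binding region, and they hold E proteins away from DNA. In mESCs, BMP4 or serum acting through ID proteins is known to sustain self-renewal together with LIF.

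Total counts per library ran from 4092877 to 6427880, and 3 counts corresponded to between 0.469 and 0.738 CPM, a floor for counting error alone. CPM scale each count to the size of its library, with TMM factors. Tfe3 was at 1074, 1035 and 1004 CPM in EtOH and at 832, 836 and 827 CPM in 4OHT, counts that pool the endogenous gene with whatever part of the fusion was counted. The summed level of 5 pluripotency markers was 2424 to 2485 CPM in EtOH and 2715 to 2757 CPM in 4OHT. Of these, Esrrb (566 to 882 CPM), Nanog and Zfp42 were called higher, Pou5f1 (791 to 697 CPM) lower, and Sox2 was not called. Of 8 trophectoderm markers, all with at least 1 count, the summed level was 447 to 469 CPM in EtOH and 958 to 979 CPM in 4OHT. Most of that sum was Krt8 (mean 219 CPM in EtOH and 489 in 4OHT) and Krt18 (161 and 371). All 6 of those tested were called higher in 4OHT by edgeR: Hand1 (1.54 to 8.96 CPM, 5.89-fold), Eomes (4.97 to 13.1 CPM, 2.61-fold), Krt18 (2.31-fold), Gata3 (2.24-fold), Krt8 (2.23-fold) and Tfap2c (1.16-fold). Cdx2 (mean 2.25 and 1.54 CPM) and Elf5 (1 count over the 6 libraries) were too low to test. Hand1 had 3, 9 and 8 counts in the EtOH libraries and 46, 46 and 55 in those of 4OHT. It passed the minimum-count filter only through 4OHT, which tied its being tested to a higher level there. Summed levels of 6 markers each were 15.01 to 22.8 and 23.2 to 27.4 CPM for primitive endoderm, 6.78 to 9.06 and 3.69 to 5.31 CPM for mesoderm (Lhx1 at 0 in every library), 76.7 to 81.2 and 55.9 to 59.0 CPM for neural genes, and 13.7 to 22.1 and 17.1 to 22.3 CPM for fibroblasts. Both tested mesoderm markers were called by edgeR, T lower (mean 4.67 to 0.509 CPM) and Kdr higher (0.597 to 2.68 CPM). Each was near the floor in one group and passed the minimum-count filter only through the other. Tubb3 was the only neural marker called (54.5 to 33.7 CPM, lower), and no primitive endoderm or fibroblast marker was called. In bulk RNA, more cells that express a gene and more RNA per cell cannot be told apart.

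With edgeR's quasi-likelihood test and a Benjamini-Hochberg adjusted p under 0.05 as the call, 4 of the 10 members were higher in 4OHT, 2 were lower and 4 were not called. Among all tested genes 42.0% were called in either direction, 21.4% higher and 20.6% lower. The share of members called higher was above that background, and the share called lower was near it. With only 10 genes, this difference was not tested and is not read as a result. Id2, Bmp4 and Smad6 rose more than 2-fold, Smad7 rose by less, and Id1 and Smad5 fell by less than 1.5-fold. Called changes of at least 1.5-fold made up 12.1% of all tested genes, and 3 members were among them. The absolute log2 fold changes of Id2, Bmp4 and Smad6 were at least as large as those of 97.1%, 96.8% and 96.5% of tested genes. The median log2 fold change was 0.18 over the members and −0.0024 over all tested genes, and the medians of the absolute values were 0.24 and 0.21. Values of the groups did not overlap for 5 members, against 48.8% of all tested genes.

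**Figure D1:**
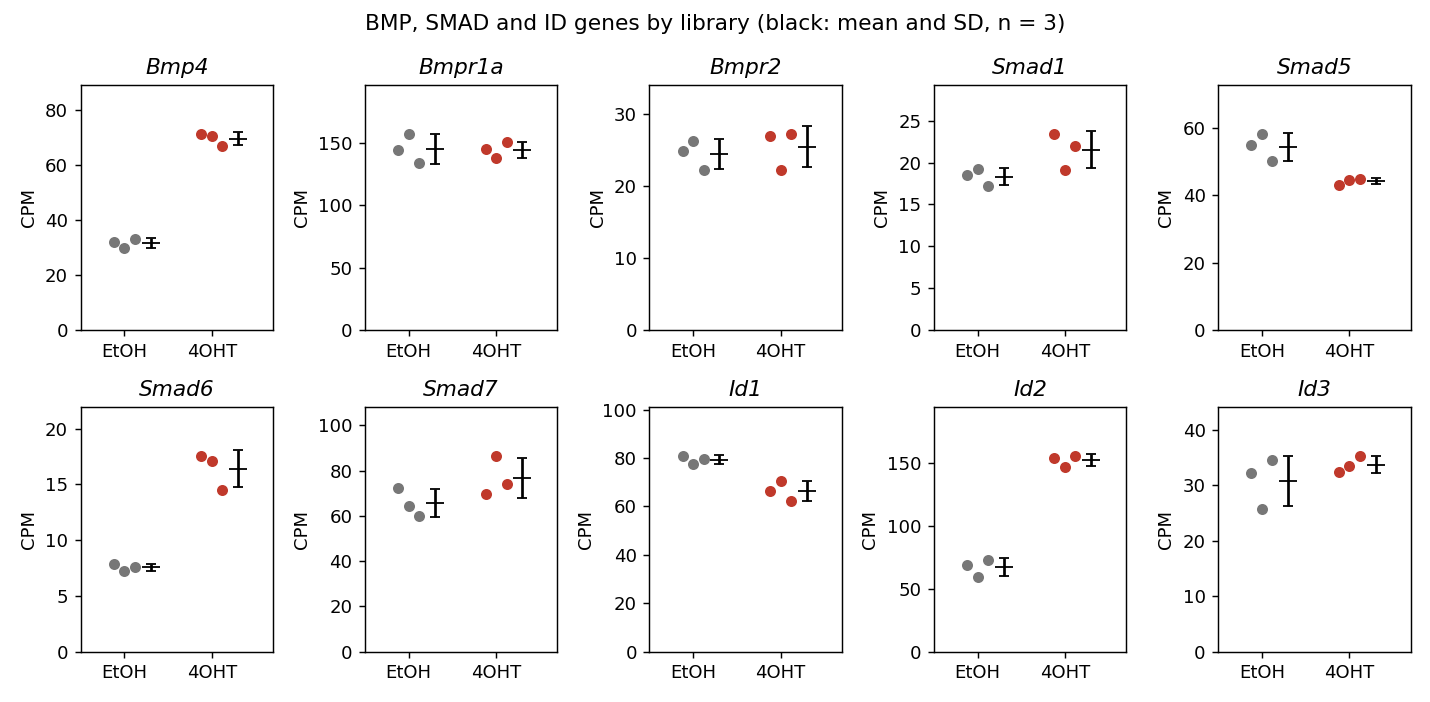
Levels of the 10 genes in each library, in CPM on linear axes from 0, with EtOH in grey, 4OHT in red and the mean with SD (n = 3) in black. Bmp4, Smad6 and Id2 lay higher in every 4OHT library than in any EtOH library, Smad5 and Id1 lay lower in every 4OHT library, and the groups of the other 5 genes overlapped.

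The promoters of the 3 members that rose more than 2-fold are shown with that of Id3, an ID gene that was not called, so that the letters of genes that differ in response can be compared. Windows from RefSeq's promoter table for GRCm38.p6 were used for 8 of the 10 members, 10 windows in all. No window of Id1 or Smad7 was scanned. Each window holds the 250 bases before a start given in that table, 5′ to 3′ on the gene's strand. These starts need not be the outer end of the gene: the windows of Smad6 (in part), of Bmpr1a and 1 of the 3 of Smad5 (both whole) lie within the gene bounds given below, and another of Smad5 reaches into them. Capitals mark matches, on either strand, to any of 7 motifs: CACGTG (the E-box that MiT/TFE factors bind), CATGTG (a related E-box), GGCGCC (a GC-rich SMAD element), GTCTAGAC (a palindromic SMAD element), TATAAA (the TATA box), ATAAAA (a variant of it) and CCAAT (the CCAAT box). The motifs were chosen after the sequences of the members had been read, CCAAT and ATAAAA because they were seen in Id2, so their presence in a member is no test. No matches overlapped in the windows of the members.
Bmp4 (chr14:46390670-46390919, minus strand): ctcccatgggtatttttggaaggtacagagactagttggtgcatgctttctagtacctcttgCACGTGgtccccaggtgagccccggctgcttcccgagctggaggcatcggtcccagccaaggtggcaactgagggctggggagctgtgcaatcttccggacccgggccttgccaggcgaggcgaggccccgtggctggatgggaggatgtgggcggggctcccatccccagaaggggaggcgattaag
Smad6 (chr9:64022060-64022309, minus strand): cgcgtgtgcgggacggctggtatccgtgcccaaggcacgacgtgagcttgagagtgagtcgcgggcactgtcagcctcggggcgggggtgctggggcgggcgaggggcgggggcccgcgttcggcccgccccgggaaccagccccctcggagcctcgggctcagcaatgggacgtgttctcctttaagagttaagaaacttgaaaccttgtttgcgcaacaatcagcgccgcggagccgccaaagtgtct
Id2 (chr12:25096093-25096342, minus strand): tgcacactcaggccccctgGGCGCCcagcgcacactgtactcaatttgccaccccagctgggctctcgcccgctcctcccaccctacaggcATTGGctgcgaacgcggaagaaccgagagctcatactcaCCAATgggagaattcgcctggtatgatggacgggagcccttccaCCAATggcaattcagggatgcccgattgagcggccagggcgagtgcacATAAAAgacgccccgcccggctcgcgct
Id3 (chr4:136143572-136143821, plus strand): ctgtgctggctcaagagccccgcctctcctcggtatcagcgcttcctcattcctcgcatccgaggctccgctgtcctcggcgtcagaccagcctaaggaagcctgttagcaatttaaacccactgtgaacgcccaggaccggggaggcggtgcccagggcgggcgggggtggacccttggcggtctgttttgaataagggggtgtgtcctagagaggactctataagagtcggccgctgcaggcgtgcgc

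The Bmp4 window held 1 CACGTG, from −188 to −183 counted from the start, a motif found in 6.02% of the 32851 mouse windows of this length. Id2 held 1 GGCGCC, from −231 to −226 (9.59% of all windows), 1 ATAAAA, from −28 to −23 (17.0%), and 3 CCAAT boxes with first bases at −159, −120 and −76 (33.8% hold at least 1). No match lay in the Smad6 or Id3 window. GTCTAGAC does lie across the Smad6 start of that table, from −4 to 4 with no position 0. It enters the window only when the 10 bases after that start are added, a change made after the match had been seen. GTCTAGAC was found in 0.167% of the windows of 250 bases and in 0.177% of those of 260. Among the other members, GGCGCC was found in Bmpr1a, Bmpr2 and 1 of the 3 Smad5 windows, and CCAAT in Bmpr1a, Smad1 and 2 of the 3 Smad5 windows. CATGTG (12.3% of all windows) and TATAAA (12.4%) were found in none of the 10 member windows scanned, which leave out Id1 and Smad7. These matches describe letters only, and binding was not measured here.

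Bmp4, the ligand of the group, lies on chromosome 14 (46383525 to 46390669, GRCm38, minus strand). It was at 32.0, 29.6 and 33.0 CPM in EtOH and at 71.2, 70.5 and 66.7 CPM in 4OHT. Every 4OHT library was above every EtOH library, and the spread within each group was small beside the gap. Bmp4 rose 2.20-fold (log2 fold change 1.14, SE 0.09, edgeR adjusted p = 1.9e-28). A value between 1.09 and 1.17 on the log2 scale was found when each library was left out. Its gene model shares 3.96% of its exon bases with a model on the opposite strand, and the strand setting of the counting is not given. Of the other members, Bmpr1a shares 4.57% with a model on the opposite strand and Smad5 1.35% with a model on the same strand.

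Neither receptor gene was called. Bmpr1a, the type I receptor gene (chromosome 14, 34411061 to 34503336), was at 144, 157 and 134 CPM in EtOH and at 145, 138 and 150 CPM in 4OHT. Its log2 fold change was −0.01 (SE 0.05, edgeR adjusted p = 0.95), and the sign turned when EtOH replicate 2 (0.05) or 4OHT replicate 2 (0.03) was left out. Bmpr2, the type II receptor gene (chromosome 1, 59764279 to 59878081), was at 24.8, 26.2 and 22.1 CPM in EtOH and at 26.9, 22.2 and 27.2 CPM in 4OHT. The groups overlapped for both genes. Bmpr2 had a log2 fold change of 0.06 (SE 0.12, edgeR adjusted p = 0.74), just under 0 without EtOH replicate 3 (−0.0018) or without 4OHT replicate 3 (−0.0023).

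Of the receptor SMADs, which carry the signal, Smad5 fell and Smad1 was not called. Smad1 (chromosome 8, 79338395 to 79399428) was at 18.5, 19.2 and 17.2 CPM in EtOH and at 23.4, 19.1 and 22.0 CPM in 4OHT, with the second 4OHT library inside the EtOH range. It was not called (log2 fold change 0.23, SE 0.13, edgeR adjusted p = 0.17). Smad5 (chromosome 13, 56703010 to 56742378) was at 55.0, 58.3 and 50.2 CPM in EtOH and at 43.2, 44.5 and 44.8 CPM in 4OHT, with no overlap. Smad5 was 1.23-fold lower (log2 fold change −0.30, SE 0.08, edgeR adjusted p = 0.0016). Per kilobase of the length in the table, Smad1 transcripts were 0.793, 0.775 and 0.807 times as abundant as those of Smad5 in EtOH and 1.28, 1.01 and 1.16 times as abundant in 4OHT. That ratio does not depend on library scaling, and its mean log2 value differed by 0.53 (two-sided exact permutation p = 0.1, the smallest that 3 against 3 allows, adjusted p = 0.12 over 6 pairs). The sum of both genes was 13.6 ± 0.901 RPKM (CPM per kilobase of the gene length given in the table, SD, n = 3) in EtOH and 13.2 ± 0.652 RPKM in 4OHT, with overlap.

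The inhibitory SMADs both rose, Smad6 by far more. Smad6 (chromosome 9, 63953076 to 64022085) was the least abundant member in CPM, counted 39, 32 and 31 times with EtOH and 81, 95 and 93 times with 4OHT. Those are 7.85, 7.23 and 7.63 CPM against 17.6, 17.1 and 14.5 CPM, so the lowest 4OHT library was well above the highest EtOH library. Smad6 rose 2.14-fold (log2 fold change 1.10, SE 0.18, edgeR adjusted p = 1.6e-08). Smad7 was at 72.3, 64.2 and 60.03 CPM in EtOH and at 69.7, 86.6 and 74.2 CPM in 4OHT, with the first 4OHT library below the first EtOH library. Smad7 rose 1.17-fold in edgeR (log2 fold change 0.23, SE 0.07, adjusted p = 0.0070). That call did not hold in DESeq2 (adjusted p = 0.084), without EtOH replicate 3 (log2 fold change 0.17, edgeR adjusted p = 0.089) or without 4OHT replicate 2 (0.14, edgeR adjusted p = 0.17).

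Within a library, Smad6 stood at 0.162, 0.168 and 0.190 times the level of Smad7 per kilobase in EtOH and at 0.377, 0.296 and 0.293 times in 4OHT. All 3 ratios in 4OHT were above those in EtOH, a mean log2 difference of 0.88 (two-sided exact permutation p = 0.1, adjusted p = 0.12). Inhibitory SMADs summed to 17.3 ± 1.46 RPKM in EtOH and 22.8 ± 2.11 RPKM in 4OHT (SD, n = 3 each). Against the sum of the receptor SMADs, this was a ratio of 1.38, 1.17 and 1.27 in EtOH and of 1.58, 2.02 and 1.60 in 4OHT (two-sided exact permutation p = 0.1). The lowest ratio in 4OHT was above the highest in EtOH.

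The 3 ID genes each did something else: Id2 rose, Id1 fell and Id3 was not called. Id2 (chromosome 12, 25093799 to 25096092) was at 69.1, 59.5 and 73.3 CPM in EtOH and at 154, 147 and 156 CPM in 4OHT. It rose 2.27-fold (log2 fold change 1.18, SE 0.06, edgeR adjusted p = 2.9e-49), and no other member changed by more. Id1 (chromosome 2, 152736251 to 152737410) was at 81.0, 77.5 and 79.5 CPM in EtOH and at 66.2, 70.5 and 62.2 CPM in 4OHT, with no overlap. It was 1.20-fold lower (log2 fold change −0.26, SE 0.07, edgeR adjusted p = 0.0010). Id3 (chromosome 4, 136143822 to 136145392) was at 32.2, 25.8 and 34.4 CPM in EtOH and at 32.3, 33.4 and 35.3 CPM in 4OHT. One EtOH library was low and the other two lay in or next to the 4OHT range (log2 fold change 0.13, SE 0.10, edgeR adjusted p = 0.31).

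Id2 stood below Id1 in EtOH and above it in 4OHT by the lengths in the table. Per kilobase, Id1 exceeded Id2 by 1.64, 1.82 and 1.51 times in the EtOH libraries and stood at 0.599, 0.671 and 0.556 times Id2 in 4OHT. The mean log2 ratio differed by −1.44 (two-sided exact permutation p = 0.1, adjusted p = 0.12). Id2 over Id3 went from 1.61, 1.73 and 1.59 to 3.58, 3.30 and 3.31, and Id1 over Id3 from 2.63, 3.15 and 2.41 to 2.14, 2.21 and 1.84, also without overlap and at the same p. Of the summed ID transcripts, Id1 made up between 48.2% and 53.6% in EtOH and between 29.9% and 34.0% in 4OHT. The share of Id2 was between 29.4% and 31.8% in EtOH and between 50.7% and 53.8% in 4OHT. Id3 held between 17.0% and 19.97% in EtOH and between 14.9% and 16.2% in 4OHT. In total, ID transcripts stood at 177, 159 and 181 RPKM in EtOH and at 228 RPKM in each 4OHT library.

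The side of 1 on which a ratio lies, the shares and the sums rest on the gene lengths. For a ratio between single genes, the log2 difference between the groups does not. Ratios of sums, such as inhibitory over receptor SMADs or ID over E proteins, rest on the lengths throughout and were not recomputed with others. With the exon bases of GENCODE vM21 as lengths, an alternative chosen after seeing the data, Id1 over Id2 was 2.46, 2.74 and 2.28 in EtOH and 0.902, 1.01 and 0.837 in 4OHT, so Id2 no longer exceeded Id1 in 4OHT replicate 2. The share of Id2 was then between 23.1% and 25.5% in EtOH and between 43.1% and 46.6% in 4OHT. That of Id3 was 13.6% to 16.3% and 13.0% to 14.4%, with overlap. Smad1 over Smad5 was 0.399, 0.390 and 0.407 in EtOH and 0.643, 0.509 and 0.582 in 4OHT, below 1 in every library.

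**Figure D2:**
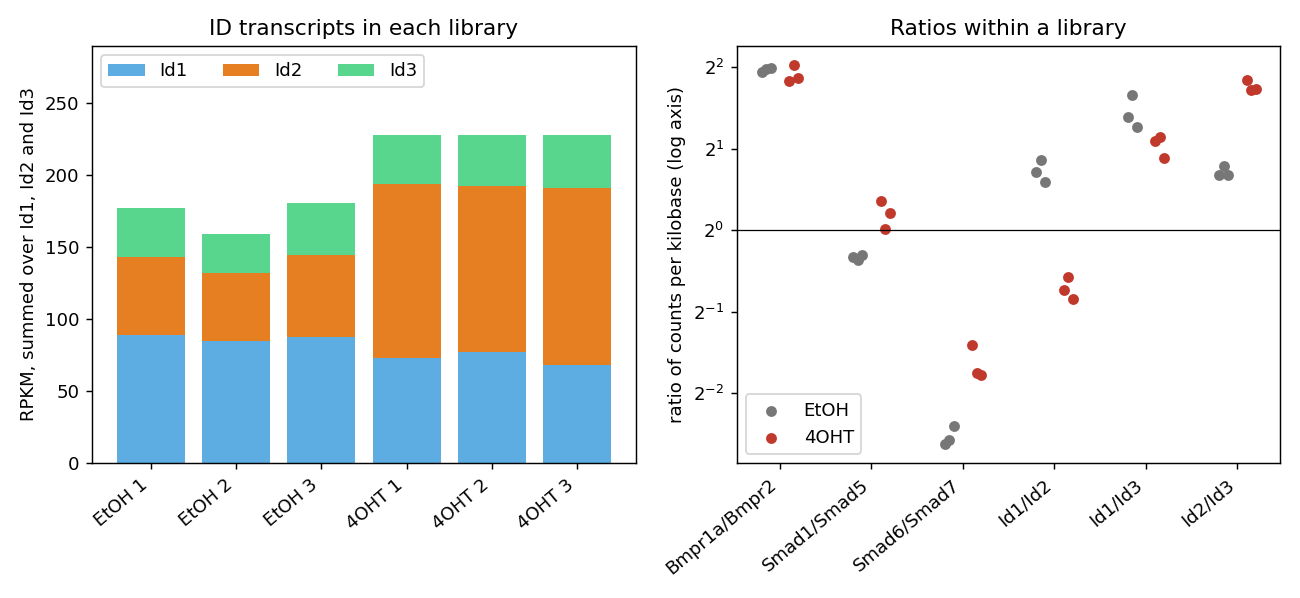
Left, RPKM of Id1, Id2 and Id3 stacked for each library; right, ratios of counts per kilobase within a library for 6 pairs of genes of 1 role, on a log axis, with 1 point a library. With the lengths in the table, Id2 is the smaller block than Id1 in EtOH and the larger in 4OHT, and the groups are apart for every pair but Bmpr1a/Bmpr2.

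The receptor pair was the exception among the 6 ratios. Bmpr1a over Bmpr2 was 3.83, 3.94 and 3.97 in EtOH and 3.55, 4.08 and 3.64 in 4OHT, a mean log2 difference of −0.06 (two-sided exact permutation p = 0.4, adjusted p = 0.4). The size of this ratio rests on the gene lengths. With the GENCODE exon bases it was 16.5, 17.0 and 17.1 in EtOH and 15.3, 17.6 and 15.7 in 4OHT, also with overlap.

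By level per kilobase of the table's lengths in EtOH, the order was Id1 (87.1 RPKM), Id2 (52.9), Id3 (32.3), Bmpr1a (27.2), Bmp4 (15.8), Smad7 (14.8), Smad5 (7.60), Bmpr2 (6.95), Smad1 (6.01) and Smad6 (2.55). Ranges over the libraries overlapped between Id3 and Bmpr1a, between Bmp4 and Smad7, and between Smad5 and Bmpr2. In 4OHT, Id2 (120 RPKM) led Id1 (72.8), and Bmp4 (34.8) stood beside Id3 (35.3), above Bmpr1a (27.1) and Smad7 (17.3). Below these came Bmpr2 (7.25), Smad1 (7.06), Smad5 (6.16) and Smad6 (5.52), with overlap only between Id3 and Bmp4 and between Bmpr2 and Smad1 among neighbours. This order also depends on the gene model, since GENCODE exons cover 17983 bases for Bmpr2 (3507 in the table), 6262 for Smad1 (3049), 2438 for Id2 (1272) and 1791 for Id3 (953). With those lengths Bmpr2 was the lowest member in both groups, Bmpr1a stood above Id3 in both, and Bmp4 (30.9 per kilobase) stood above Bmpr1a (22.7) and Id3 (18.8) in 4OHT.

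**Figure D3:**
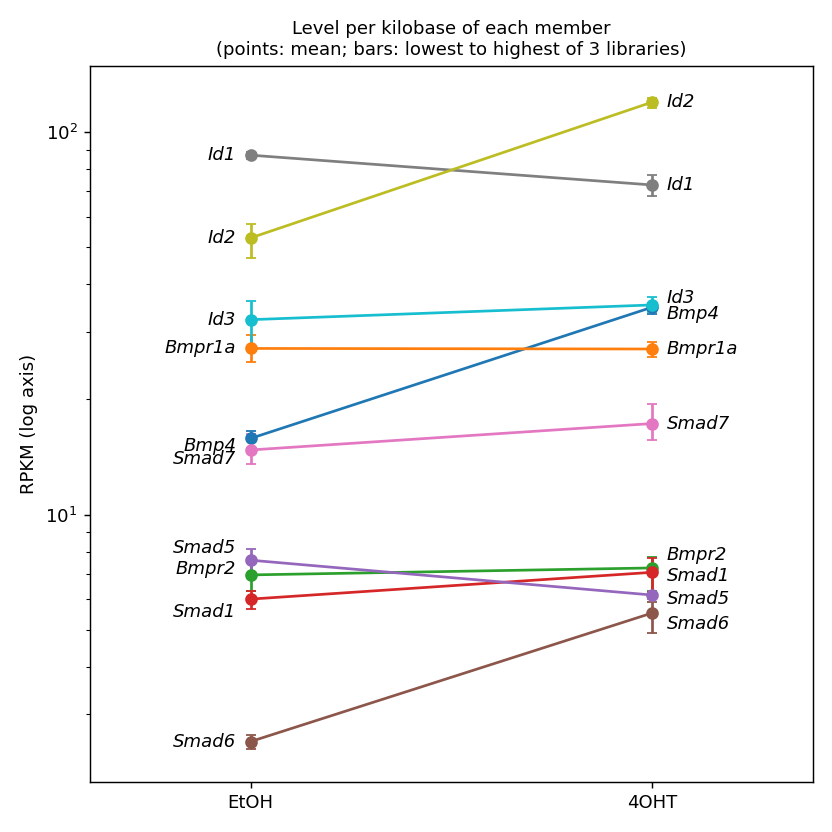
Mean RPKM of each gene in EtOH and 4OHT on a log axis, with bars from the lowest to the highest of 3 libraries. With the lengths in the table, Id2 passes Id1, Bmp4 climbs from beside Smad7 (15.8 RPKM) to beside Id3 (34.8 RPKM), and Smad6 comes from 2.55 RPKM to just under Smad5.

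EtOH replicate 2 was the highest of its group for 4 members, among them both receptors and both receptor SMADs, and the lowest for 5, among them Bmp4, Smad6 and the 3 ID genes. Across the 12345 tested genes its deviation from the group mean had a Spearman correlation with gene length of 0.11, against −0.03 and −0.09 for the other EtOH libraries. In 4OHT these correlations were 0.03, −0.14 and 0.12, and between the log2 fold change and length the value was 0.13, all over genes, which are not independent replicates. With offsets from a smooth trend on length, an alternative chosen after seeing the data, the same 4 members were higher and the same 2 lower. Id1 then had a log2 fold change of −0.20 (edgeR adjusted p = 0.013).

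Other genes of the pathway were read from lists by role. They named 79 genes, of which 48 were tested, with 19 higher and 10 lower, beside 21.4% and 20.6% of all tested genes. The median log2 fold change over the 48 was 0.21. The other BMP-type ligands were scarce: 10 of 13 were too low to test, among them Bmp2 and Bmp5, and Bmp10 and Gdf2 had no count. Bmp8b alone was called (12.2 ± 1.42 to 15.8 ± 0.901 CPM, SD, n = 3 each, edgeR adjusted p = 0.042). That call did not hold without EtOH replicate 1 (0.13), EtOH replicate 2 (0.15), 4OHT replicate 1 (0.064) or 4OHT replicate 2 (0.12), nor in DESeq2 (0.17), with upper quartile factors (0.066) or with no filter (0.055). Bmp8b shares 12.2% of its exon bases with models on the opposite strand.

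All 4 tested processing proteases rose. Bmp1, which despite its name is a metalloprotease that cleaves the BMP antagonist chordin, was at 33.0, 30.3 and 30.5 CPM in EtOH and at 67.7, 63.5 and 67.0 CPM in 4OHT (2.11-fold, edgeR adjusted p = 1.2e-25). The proprotein convertases, which cut BMP precursors, were Furin (32.6 to 48.5 CPM, 1.47-fold, edgeR adjusted p = 8.7e-08), Pcsk6 (59.6 to 95.0 CPM, 1.59-fold, edgeR adjusted p = 1.5e-17) and Pcsk7 (18.6 to 24.6 CPM, 1.31-fold, edgeR adjusted p = 0.0086). For Pcsk7 the adjusted p was 0.074 without EtOH replicate 3 and 0.062 in DESeq2, and it shares 10.05% of its exon bases with models on the opposite strand. Pcsk5, Tll1 and Tll2 were too low to test.

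Of 17 secreted antagonists 7 were tested, with 2 higher and 1 lower. Nbl1, of the DAN family, was at 2.22, 2.49 and 1.97 CPM in EtOH and at 4.34, 6.13 and 6.72 CPM in 4OHT (2.60-fold, edgeR adjusted p = 6.9e-05). Its EtOH libraries alone would not have passed the minimum-count filter, which tied its being tested to a higher level in 4OHT. Fstl1, a secreted follistatin-like glycoprotein, rose 1.19-fold from 102 CPM (edgeR adjusted p = 0.00013). Fst, which encodes follistatin, a binder of activins and some BMPs, was at 7.45, 3.16 and 4.18 CPM in EtOH and at 2.17, 2.52 and 2.03 CPM in 4OHT. At an edgeR adjusted p of 0.0014 it was 2.24-fold lower. Leaving out EtOH replicate 1 ended that call (log2 fold change −0.70, edgeR adjusted p = 0.17). The 4OHT libraries of Fst alone would not have passed the minimum-count filter, which tied its being tested to a higher level in EtOH. The classical BMP antagonist genes Nog, noggin, and Chrd, chordin, were low and not called, at 2.91 and 4.81 CPM in EtOH and 3.52 and 5.35 CPM in 4OHT. On the log2 fold scale they stood at 0.24 and 0.13 (adjusted p = 0.60 and 0.74 in edgeR), and these turned in sign when some libraries were left out: Nog without EtOH replicate 3 (−0.05) or 4OHT replicate 2 (−0.07), Chrd without EtOH replicate 2 (−0.10) or 4OHT replicate 1 (−0.01). Both were named after their values were known.

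Of 11 other receptors and co-receptors 9 were tested, with 2 higher and 2 lower. Neo1, a receptor that binds the RGM co-receptors of BMPs, rose from 63.3 ± 2.56 to 78.6 ± 1.79 CPM (SD, n = 3 each, edgeR adjusted p = 0.00011). The call of Tgfbr3, betaglycan (2.47 to 4.40 CPM, edgeR adjusted p = 0.031), was lost without EtOH replicate 1 (0.088), EtOH replicate 2 (0.12), 4OHT replicate 1 (0.12) or 4OHT replicate 3 (0.068). That of Acvr2b, a type II receptor (18.7 to 13.9 CPM, edgeR adjusted p = 0.015), was lost without EtOH replicate 2 (0.13) or 4OHT replicate 2 (0.066). Hjv, the co-receptor hemojuvelin (3.94 to 2.25 CPM, edgeR adjusted p = 0.042), lost its call when any library other than 4OHT replicate 2 was left out, with 5 values between 0.058 and 0.16, and with no filter (0.069). DESeq2 called none of Tgfbr3 (0.13), Acvr2b (0.082) and Hjv (0.15). Tgfbr3 would not have passed the minimum-count filter by EtOH alone, nor Hjv by 4OHT alone. The testing of each was thus tied to a higher level in the other group. The type I receptor gene Acvr1 (9.22 to 9.92 CPM) and the type II receptor gene Acvr2a (21.6 to 21.7 CPM), also named after the fact, were not called (edgeR adjusted p = 0.70 and 0.96). Bmpr1b, the other type I receptor gene of this name, was too low to test, with 4, 4 and 6 counts in the EtOH libraries and 2, 0 and 1 in those of 4OHT.

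None of the 3 other SMAD genes tested was called by edgeR, and all 3 had an unadjusted p over 0.05. Smad4, the shared partner of the receptor SMADs, was at 85.4, 84.5 and 82.4 CPM in EtOH and at 83.8, 84.6 and 85.0 CPM in 4OHT (0.01 on the log2 fold scale with an SE of 0.07, edgeR adjusted p = 0.96). Smad2 and Smad3, which serve activin and Nodal signals, stood at 0.09 and −0.07 on the log2 fold scale (adjusted p = 0.32 and 0.66 in edgeR). Smad9, the other BMP receptor SMAD, was too low to test. This list had no called gene, and its members were named with their values known.

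Among 13 inhibitors acting in the cell, all tested, 5 were higher and 5 lower. The higher ones were Tob1, which dampens SMAD signalling (27.3 to 44.5 CPM, 1.64-fold), the ubiquitin ligase gene Nedd4l (1.51-fold), the SMAD phosphatase genes Ctdsp2 (89.7 to 127 CPM, 1.42-fold) and Ctdsp1 (1.30-fold), and Smurf1, a ubiquitin ligase for SMAD1 and SMAD5 (1.30-fold). The lower ones were Skil, a corepressor that binds SMADs (314 ± 4.51 to 199 ± 10.9 CPM, 1.58-fold lower, edgeR adjusted p = 4.2e-36), and its relative Ski (1.16-fold lower). Bambi, a receptor look-alike without a kinase, stood at 12.2 CPM in EtOH and 7.41 CPM in 4OHT (edgeR adjusted p = 0.00055, 1.66-fold lower). Trim33 was 1.16-fold lower, and Fkbp1a, which holds type I receptors inactive, was 1.13-fold lower. All 10 had edgeR adjusted p values of 0.00055 or less. Smurf1, Ctdsp1, Ski, Bambi, Trim33 and Fkbp1a were chosen for naming with their values known.

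Of 11 further genes known as BMP targets 6 were tested, with 4 higher and 1 lower. Id4, the fourth ID gene, was low and rose 3.12-fold, from 4.03, 2.71 and 3.44 CPM to 11.3, 10.5 and 10.5 CPM (1.64 ± 0.24 on the log2 scale with SE, edgeR adjusted p = 3.7e-10). Dusp9, an ERK phosphatase known to respond to BMP4 in mESCs, was at 185, 170 and 177 CPM in EtOH and at 254, 258 and 249 CPM in 4OHT (1.43-fold, edgeR adjusted p = 7.6e-23). The factor genes Gata3 (3.48 to 7.93 CPM, edgeR adjusted p = 4.5e-05) and Gata2 (3.71 to 6.59 CPM, edgeR adjusted p = 0.0092) also rose, Gata2 not without EtOH replicate 2 (0.079) nor in DESeq2 (0.064). Dlx3 was 2.21-fold lower, at 4.23, 4.07 and 4.18 CPM in EtOH and 1.52, 1.08 and 2.81 CPM in 4OHT (edgeR adjusted p = 0.0042). Its 4OHT libraries alone would not have passed the minimum-count filter, which tied its being tested to a higher level in EtOH. Gata3 is also on the list of trophectoderm markers, whose summed level in each group is given above, and the part of other cell types in these changes was not tested.

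E proteins are the transcription factors that ID proteins bind. Tcf3, which encodes E2A, was at 177, 168 and 180 CPM in EtOH and at 124, 138 and 124 CPM in 4OHT (1.36-fold lower, edgeR adjusted p = 5.6e-15). Tcf12 rose 1.22-fold from 53.2 CPM (edgeR adjusted p = 0.0015), while Tcf4, named with its values known, had no call (−0.05 on the log2 scale, edgeR adjusted p = 0.68). The 3 genes summed to 65.3 ± 1.60 RPKM in EtOH and 54.2 ± 1.90 RPKM in 4OHT (SD, n = 3 each). ID transcripts exceeded them 2.71, 2.50 and 2.71 times in EtOH and 4.28, 4.04 and 4.30 times in 4OHT (two-sided exact permutation p = 0.1), with no overlap.

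**Figure D4:**
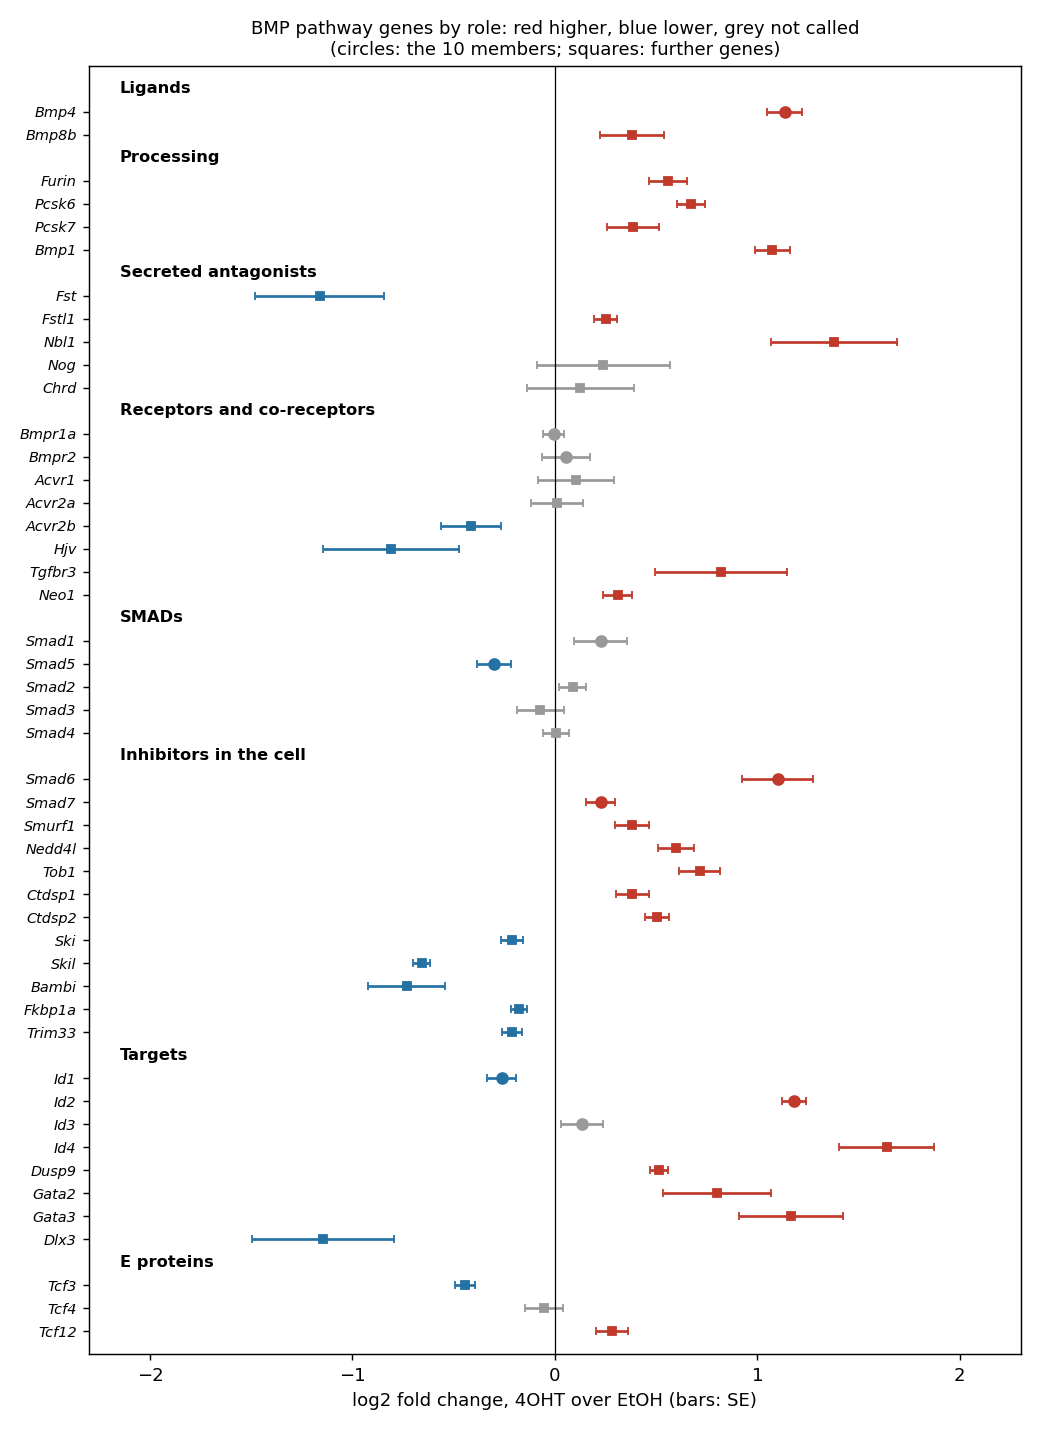
Log2 fold change of 4OHT over EtOH with SE for the 10 members (circles) and 37 of the 48 tested further genes of the pathway (squares). Genes are ordered by role, with called genes in red (higher) or blue (lower) and others in grey. All called genes of the lists are drawn. Some genes without a call are not, among them Smurf2, Lemd3 and Ppm1a of the inhibitors in the cell. Processing proteases lie to the right of 0 without exception, while the inhibitors in the cell and the ID genes lie on both sides.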

How the data were processed

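RNA was sequenced in 6 libraries, 3 of each group, made with a stranded mRNA kit per the labels' protocols. The authors deposited raw counts per gene with a gene length, and fastp, STAR, featureCounts and mm10 are named in the submitters' processing notes without roles. No source used here gives their versions, the annotation or the strand setting.

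Genes were kept by filterByExpr in edgeR 4.0.16 (minimum count 10, minimum total 15) and tested in R 4.3.3 with TMM factors, robust dispersions and the robust quasi-likelihood test, with Benjamini-Hochberg adjustment over all 12345 genes at 0.05. Standard errors were obtained by dividing the size of each log2 fold change by the square root of F. CPM use TMM-scaled library sizes, and RPKM divide them by the table's length. Positions are from RefSeq and exon overlaps from GENCODE vM21, both on GRCm38. Smaller exon overlaps of some other further genes are not listed. Named were all members, called genes of each list (the 4 with the smallest p where more than 5 were called), and others marked in the text as named with their values known. Of these others, Nog, Chrd, Acvr2a, Smad4 and Tcf4 changed sign in some alternatives. Acvr1 kept its sign with each library left out. Promoter windows were set at 250 bases, and the motifs were chosen after reading the sequences. The members, lists and tests were chosen with earlier results of these data known. Replicate numbers were not used as pairs: deviations of same-numbered libraries had correlations of −0.02, −0.02 and −0.02. All replicate pairs differed by more than counting error. Alternatives were other scaling factors and filters, DESeq2 1.42.0, limma-voom (limma 3.58.1), a replicate block, each library left out, stricter thresholds and, chosen after seeing the data, length offsets (loess on gene length) and GENCODE exon lengths. Figures were drawn with matplotlib 3.10.9.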

Additional observations from a re-analysis of the deposited data

How the results depend on the processing

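Over 14 alternatives for each member, the fold changes of Bmp4, Smad5, Smad6, Id1 and Id2 kept their direction and their call, and those of Smad1 and Id3 kept their direction without a call. Smad7 kept its direction and lost its call in DESeq2 (log2 fold change 0.22, adjusted p = 0.084) and without EtOH replicate 3 or 4OHT replicate 2, with values from 0.14 to 0.31 over the 6 libraries left out in turn. Bmpr1a and Bmpr2 were never called. Bmpr1a turned to 0.0014 with no filter and ranged from −0.056 to 0.055 with a library left out, and Bmpr2 from −0.0023 to 0.15. Among further genes, Smad4 turned to −0.029 with upper quartile factors, to −0.0052 with length offsets and to −0.0081 without EtOH replicate 3, and Tcf4 to 0.0070 without 4OHT replicate 3, with ranges over libraries left out of −0.0081 to 0.016 and −0.13 to 0.026. Nog ranged from −0.072 to 0.44 and Chrd from −0.099 to 0.31. Acvr2a was −0.023 with upper quartile factors, −0.038 with length offsets and from −0.041 to 0.076 with a library left out. The cause of these turns was not tested. Of 532 values for further genes, 28 lost the call and 15 changed sign, all 15 in genes without a call. A minimum of 1.5-fold left 968 higher and 530 lower genes of 2643 and 2546, 0 lower members, and 9 higher and 5 lower genes of the pathway lists, because smaller changes are then not counted. The replicate block, whose numbers the labels do not tie to a shared culture, called 2585 higher and 2497 lower genes, the same 4 higher and 2 lower counts of members, and 19 and 9 genes of the pathway lists, where Hjv lost its call (adjusted p = 0.054). No library correlated best with its own number. The 6 ratios kept their sign without each library. The depth limits genes near the floor of 3 counts.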

Other observations

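Genes whose levels followed the members most closely over the 6 libraries were sought by Pearson's r of log2 CPM, among tested genes averaging 4 or more on that scale. These values are descriptions: the libraries form 2 treatment groups, so any gene with a large change of the same direction scores high. The closest to Bmp4 were Washc2, S100a6, which encodes a calcium-binding protein, and Mylpf, with r of at least 0.9992. The closest to Id2 were Serpinb6c, Spint1 and Zc3h12a, which encodes a ribonuclease of inflammatory transcripts. For Id1 they were Cetn2, Elmo1 and Slirp, of which only Elmo1 was called (log2 fold change −0.53). For Id3 they were Mlx, a partner of the MondoA and ChREBP factors, Ubb-ps and Bst2, none called by edgeR, and their r was lower, from 0.975 to 0.984. No gene was shared between the 4 sets of 3.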
